A study of Mus musculus with 12 samples.

Results

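The ATF4-CHOP transcription factors and the genes that feed back on them were followed in mouse bone-marrow-derived macrophages as a fixed set of 10 genes, chosen by symbol, out of 24346 genes in the table. The choice was made with earlier results of these data known. The set holds the transcription factor genes Atf4, Ddit3 (which encodes CHOP), Atf3, Atf5 and Cebpg, the stress-response cofactor gene Nupr1, the pseudokinase gene Trib3, the phosphatase subunit genes Ppp1r15a and Ppp1r15b, and the glutathione-degrading enzyme gene Chac1. All 10 were present in the table, and all 10 passed the filter of at least 1 FPKM in at least 3 of the 12 libraries. Atf5 and Chac1 passed it only through the libraries with tunicamycin, since each reached 1 FPKM in just 2 libraries without it. For these genes a rise with tunicamycin was thus favoured by the filter. Their counts, ranks and p-values for tunicamycin below are a description.

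The cells were wild type in every group, differentiated out of bone marrow over 7 days by M-CSF, in RPMI that held 10% serum. The 4 groups of 3 libraries were Tm_LPS (tunicamycin at 5 ug/ml for 3 h, then LPS at 1 ng/ml for 3 h), Tm (tunicamycin alone), LPS (LPS alone) and Control (no treatment). The labels give 1 protocol for all groups, so the exposure time of the Tm cells is not stated in them, nor whether tunicamycin stayed on the Tm_LPS cells during LPS. They also do not say whether the 3 libraries of a group came from separate animals or cultures, and p-values therefore measure the spread between these libraries only. Tunicamycin stops N-glycosylation of new proteins, which then misfold in the endoplasmic reticulum (ER). LPS, from the outer membrane of Gram-negative bacteria, acts through TLR4.

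As background, unfolded protein in the ER activates the kinase PERK, which phosphorylates the translation factor eIF2alpha. Bulk protein synthesis then falls, while the Atf4 mRNA is translated better, and ATF4 protein, often paired with C/EBP-family partners, switches on Ddit3, Trib3, Chac1 and many genes of amino acid supply. The pathway restrains itself: the Ppp1r15a product (GADD34) and its constitutive relative from Ppp1r15b (CReP) bring protein phosphatase 1 to eIF2alpha, and the TRIB3 protein binds and damps ATF4 and CHOP. In macrophages ATF3 is also known as a factor that LPS induces and that restrains inflammatory genes.

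Levels are in FPKM, a fragment number corrected for transcript length and library size, so that levels of different genes can be set side by side. Read depth is unknown, and the precision given is the spread between libraries. Each fold change was computed on log2(FPKM + 1), which understates it for low genes, and is given with its standard error. A gene was called at a limma p under 0.05 after Benjamini-Hochberg adjustment over the 10311 genes tested. Across genes, Pearson's r was 0.973 to 0.986 within groups and 0.889 to 0.951 between them. All 10 macrophage markers were present, with a summed level of 14578 to 24209 FPKM over the libraries. Markers of T and NK cells and of erythroid cells summed to at most 0.727 FPKM in any library, B and plasma cell markers to at most 3.12, and mast cell and basophil markers to at most 1.00. Among the defining genes, Ms4a1, Pax5, Klrb1c and Ncr1 were listed at 0 in all 12 libraries. Stromal markers (8 genes) summed to 26.1 to 61.0 FPKM in Tm_LPS, 30.0 to 50.9 in Tm, 19.5 to 24.9 in LPS and 15.7 to 20.2 in Control. Neutrophil markers (8 genes in the table) summed to 17.1 to 31.7 FPKM in Tm_LPS, 14.3 to 25.8 in Tm, 190 to 317 in LPS and 86.7 to 126 in Control. Dendritic cell markers (6 genes) summed to 2.18 to 5.27 FPKM in Tm_LPS, 0.501 to 1.14 in Tm, 3.91 to 8.78 in LPS and 0.179 to 0.594 in Control. The stromal and neutrophil sums thus moved with tunicamycin, and the neutrophil and dendritic sums with LPS. Their part in the results was not tested; fewer cells of a type and less RNA per cell cannot be told apart in such bulk samples.

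The promoter windows of the genes are shown first, because several hold the same short sequence. Windows of 250 bases before to 50 after the RefSeq start site (build GRCm38.p6, the assembly also called mm10) were at hand for 9 of the 10 genes, with 2 windows for Atf5. The C/EBP-ATF element, to which ATF4 and its C/EBP partners are known to bind, was searched as TGATGNAA on both strands. It was found in 4 of the 9 genes, Atf3, Nupr1, Chac1 and Trib3, against 3.91% of 32544 mouse promoter windows of the same length. The stricter form TGATGCAA was found in Atf3, Nupr1 and Chac1 and in 0.867% of all windows; every such match is also a match to the first pattern. The cAMP response element TGACGTCA, a palindrome that counts on both strands at once, was found only in Ppp1r15a among the 9 and in 1.80% of all windows. Below, the windows of these 5 genes are printed 5′ to 3′ on the strand of the gene, in lower case, with a TGATGNAA or TGACGTCA match in capitals; a match on the opposite strand reads in reverse complement.
Atf3: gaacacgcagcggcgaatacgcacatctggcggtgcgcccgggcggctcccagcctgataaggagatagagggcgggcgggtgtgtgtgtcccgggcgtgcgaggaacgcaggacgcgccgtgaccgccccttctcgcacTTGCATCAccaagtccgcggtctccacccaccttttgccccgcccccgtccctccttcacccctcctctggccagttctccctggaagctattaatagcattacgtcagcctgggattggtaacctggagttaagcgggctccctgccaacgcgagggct
Nupr1: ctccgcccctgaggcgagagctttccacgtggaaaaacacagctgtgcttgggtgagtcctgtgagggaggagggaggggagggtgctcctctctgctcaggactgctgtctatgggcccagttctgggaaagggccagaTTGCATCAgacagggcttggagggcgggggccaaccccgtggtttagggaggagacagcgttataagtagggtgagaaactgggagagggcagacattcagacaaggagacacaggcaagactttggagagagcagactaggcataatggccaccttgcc
Chac1: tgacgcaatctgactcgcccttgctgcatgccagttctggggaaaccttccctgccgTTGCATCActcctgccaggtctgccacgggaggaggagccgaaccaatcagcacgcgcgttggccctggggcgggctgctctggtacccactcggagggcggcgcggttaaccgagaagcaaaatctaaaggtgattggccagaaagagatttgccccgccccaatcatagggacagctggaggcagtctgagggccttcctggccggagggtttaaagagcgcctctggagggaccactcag
Trib3: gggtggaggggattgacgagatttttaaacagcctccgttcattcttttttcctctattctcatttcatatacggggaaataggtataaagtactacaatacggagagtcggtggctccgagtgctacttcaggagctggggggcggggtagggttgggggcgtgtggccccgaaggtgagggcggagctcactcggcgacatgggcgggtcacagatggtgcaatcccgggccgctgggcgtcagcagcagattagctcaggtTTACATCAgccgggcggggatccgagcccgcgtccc
Ppp1r15a: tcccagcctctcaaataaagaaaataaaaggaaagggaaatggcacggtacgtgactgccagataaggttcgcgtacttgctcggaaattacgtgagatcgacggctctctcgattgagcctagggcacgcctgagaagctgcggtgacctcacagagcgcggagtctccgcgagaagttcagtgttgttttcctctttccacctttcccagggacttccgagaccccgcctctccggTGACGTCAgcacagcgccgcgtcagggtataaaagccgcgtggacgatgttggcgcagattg

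The windows lie at chr1:191183284-191183583 (minus strand) for Atf3, chr7:126625421-126625720 (minus) for Nupr1, chr2:119350992-119351291 (plus) for Chac1, chr2:152344011-152344310 (minus) for Trib3 and chr7:45526219-45526518 (minus) for Ppp1r15a. Counted from the start site, which is base 1 with no base 0, the element began at -110 in both Atf3 and Nupr1, at -193 in Chac1 and at 15, within the transcribed part, in Trib3. All 4 lay in the same orientation, on the strand opposite to the gene. The Ppp1r15a match began at -12. The windows of Ddit3, Atf4, Atf5 and Cebpg held neither TGATGNAA nor TGACGTCA. The ER stress element (CCAAT and CCACG with 9 bases between them), bound by ATF6 and XBP1 with NF-Y, was in none of the 9 genes and in 0.120% of all windows. CCACG alone was in 6 of the 9, among 33.0% of all windows. A match is a description of letters in a window; binding was not measured, and the absence of a match says nothing of elements elsewhere in a gene.

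**Figure D1:**
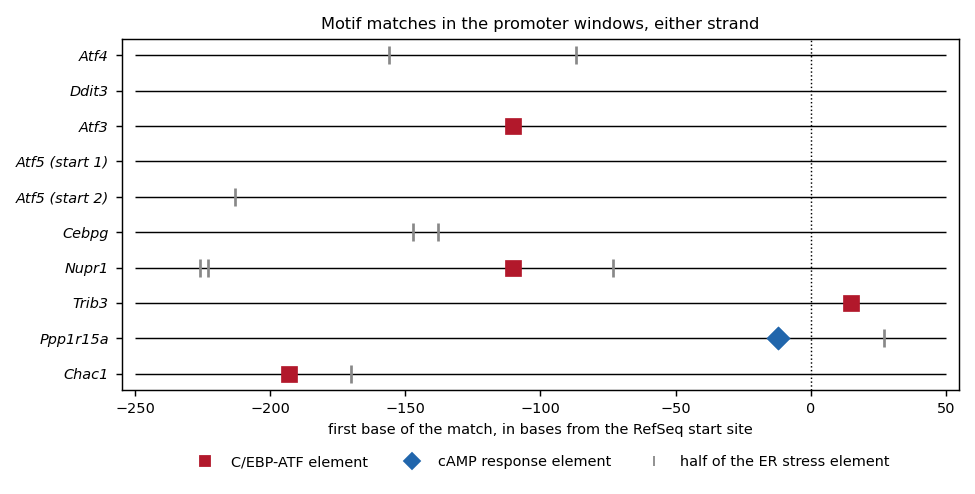
Positions of motif matches in the promoter windows of 9 genes (rows; Atf5 has 2 RefSeq start sites), in bases from the start site on the x axis. Squares mark TGATGNAA (C/EBP-ATF element), the diamond TGACGTCA and short bars CCACG, on either strand; squares stand in the rows of Atf3, Nupr1, Trib3 and Chac1, and the diamond in that of Ppp1r15a.

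Tunicamycin alone raised 9 of the 10 genes, and 5 of the 7 largest log2 rises among all 10311 genes tested belonged to the set. By log2 fold change Trib3 had rank 1, Ddit3 rank 3, Nupr1 rank 5, Ppp1r15a rank 6 and Chac1 rank 7. The filter favoured the rise of Chac1, and the set was chosen with earlier results known, so these ranks are a description. Without Atf5 and Chac1, 7 of 8 genes were called higher. In this comparison with Control, 17.9% of all genes were called higher and 16.6% lower. The median log2 fold change was 3.33 over the 10 genes and 0.03 over all genes. The exception was Ppp1r15b. With tunicamycin given before LPS, set against LPS alone, the same 9 genes were higher again and Ppp1r15b was again not called. Without Atf5 and Chac1, 7 of 8 genes were called higher here too. Of all genes 13.8% were called higher and 15.1% lower. The median over the 10 genes was 2.56 and over all genes 0.002. Both medians over the 10 genes include Atf5 and Chac1, whose rises the filter favoured.

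**Figure D2:**
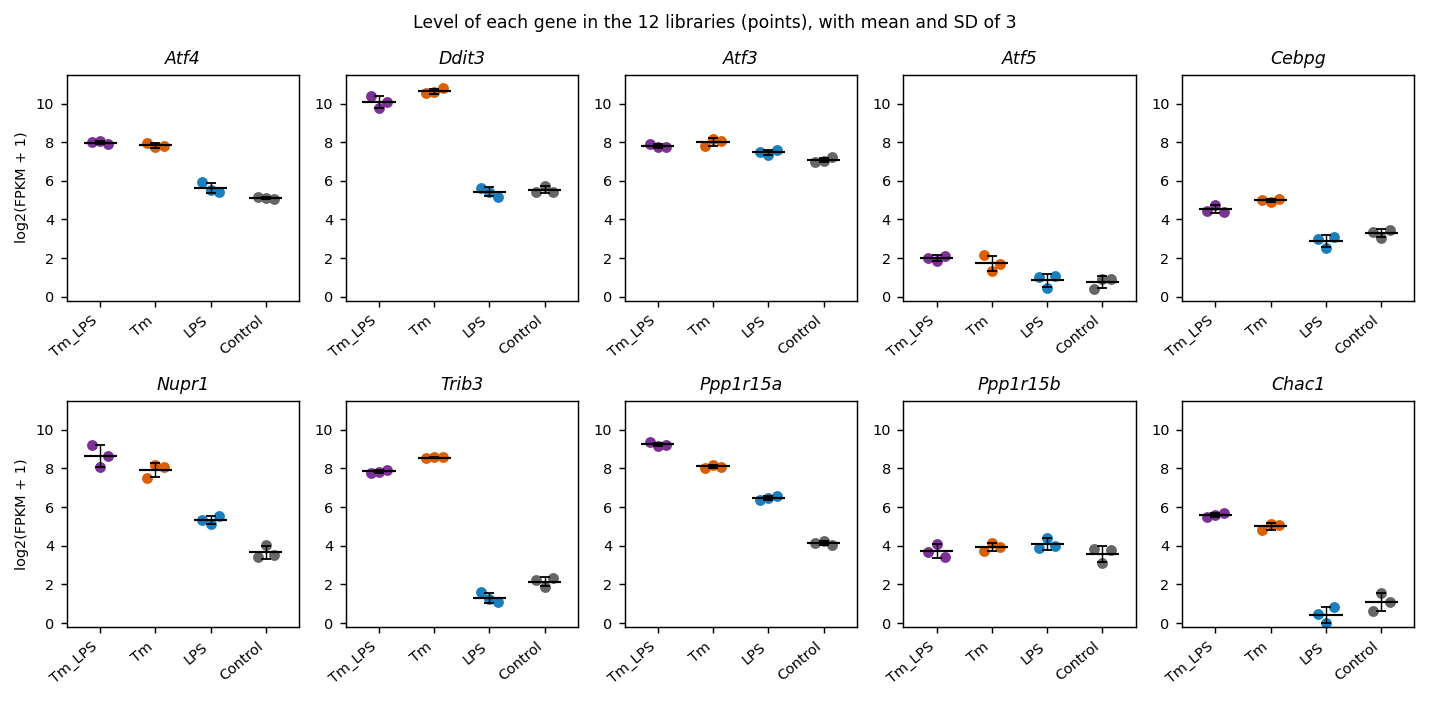
log2(FPKM + 1) of each gene (y axis) in Tm_LPS, Tm, LPS and Control libraries (x axis). Points are the 3 libraries of a group, the horizontal line is their mean and the error bar 1 SD; 9 genes stand higher in both tunicamycin groups, and Ppp1r15b stays between 7.69 and 20.5 FPKM throughout.

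Among the transcription factors, Atf4 (ENSMUSG00000042406; chromosome 15, 80255184 to 80257541, plus strand) had 255, 263 and 237 FPKM in Tm_LPS, 247, 212 and 223 in Tm, 59.9, 45.7 and 42.0 in LPS, and 34.4, 33.5 and 32.5 in Control. The tunicamycin libraries lay far above the others, the 2 tunicamycin groups overlapped, and the LPS libraries all lay above Control. Atf4 rose 6.62-fold in Tm against Control (log2 2.73 ± 0.12, limma adjusted p = 4.96e-11) and 5.09-fold in Tm_LPS against LPS (log2 2.35 ± 0.12, limma adjusted p = 4.32e-10). LPS alone raised it 1.44-fold (log2 0.53 ± 0.12, limma adjusted p = 0.00396), whereas on top of tunicamycin the change was 1.11-fold with a 95% interval of log2 -0.10 to 0.40 (limma adjusted p = 0.447).

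Ddit3 (ENSMUSG00000025408; chromosome 10, 127290774 to 127296288, plus strand), whose product CHOP promotes death under unresolved stress, had 1322, 861 and 1096 FPKM in Tm_LPS, 1478, 1564 and 1760 in Tm, 49.3, 42.6 and 35.3 in LPS, and 42.0, 52.7 and 42.0 in Control. It was the most abundant of the 10 genes in both tunicamycin groups, and all Tm_LPS libraries lay below all Tm libraries. Ddit3 rose 34.5-fold in Tm against Control (log2 5.11 ± 0.15, limma adjusted p = 3.34e-13) and 25.0-fold in Tm_LPS against LPS (log2 4.65 ± 0.15, limma adjusted p = 2.02e-12). LPS on top of tunicamycin lowered it 1.48-fold (log2 -0.57 ± 0.15, limma adjusted p = 0.0143). That call was lost without Tm replicate 3 (adjusted p = 0.0675) or Tm_LPS replicate 2 (0.0644), with no filter (0.0622) and without the mean-variance trend (0.0573). LPS alone gave log2 -0.11, with a 95% interval of -0.42 to 0.21 (limma adjusted p = 0.702).

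Atf3 (ENSMUSG00000026628; chromosome 1, 191170296 to 191218039, minus strand) was the most abundant of the 10 in Control and LPS libraries and had the smallest called rises with tunicamycin. It had 238, 215 and 214 FPKM in Tm_LPS, 221, 287 and 264 in Tm, 181, 162 and 193 in LPS, and 126, 129 and 147 in Control. Tm and Tm_LPS overlapped, and LPS stood between them and Control. Atf3 rose 1.91-fold in Tm against Control (log2 0.93 ± 0.11, limma adjusted p = 5.67e-06), 1.33-fold with LPS alone (log2 0.41 ± 0.11, limma adjusted p = 0.0121) and 1.25-fold in Tm_LPS against LPS (log2 0.32 ± 0.11, limma adjusted p = 0.0355). The LPS call was lost without Control replicate 1 (adjusted p = 0.0550) or LPS replicate 3 (0.0624), with quantile normalization (0.128) and without the trend (0.0574). The Tm_LPS against LPS call was lost without LPS replicate 1 (0.0682), LPS replicate 2 (0.151), Tm_LPS replicate 1 (0.108) or Tm_LPS replicate 3 (0.0552), with no filter (0.0669) and without the trend (0.103).

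Atf5 (ENSMUSG00000038539; chromosome 7, 44812256 to 44816658, minus strand), a relative of Atf4 under similar translational control, was the least abundant of the 10 in both tunicamycin groups. It had 3.09, 2.55 and 3.33 FPKM in Tm_LPS, 3.42, 1.54 and 2.23 in Tm, 1.04, 0.351 and 1.11 in LPS, and 0.330, 0.915 and 0.923 in Control. Both tunicamycin groups lay above the other 2 groups. The rise was 1.95-fold in Tm against Control (log2 0.96 ± 0.27, limma adjusted p = 0.0106) and 2.21-fold in Tm_LPS against LPS (log2 1.14 ± 0.27, limma adjusted p = 0.00431). The first of these was lost without Control replicate 1 (0.0541) or Tm replicate 1 (0.0621). Since the filter favoured both rises, their p-values are a description. Atf5 overlaps Nup62 and Il4i1 on the other strand, and the labels do not say whether reads were assigned by strand. Nup62 had 98.3 to 120 FPKM in Tm_LPS, 77.6 to 105 in Tm, 87.1 to 88.3 in LPS and 72.6 to 88.8 in Control, far above Atf5 and, like it, highest by mean in Tm_LPS. Il4i1 had 33.3 to 49.5 FPKM in Tm_LPS, 4.08 to 6.26 in Tm, 45.9 to 70.7 in LPS and at most 0.220 in Control. The part of either gene in the Atf5 values was not tested. With a pseudocount of 0.1 the Atf5 estimates were log2 1.64 in Tm against Control and 1.85 in Tm_LPS against LPS.

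Cebpg (ENSMUSG00000056216; chromosome 7, 35046422 to 35056573, minus strand), whose product C/EBP gamma pairs with ATF4 on DNA, had 20.4, 26.4 and 20.0 FPKM in Tm_LPS, 31.2, 29.1 and 32.3 in Tm, 6.89, 4.71 and 7.67 in LPS, and 9.37, 7.35 and 10.2 in Control. All Tm_LPS libraries lay below all Tm libraries, while LPS and Control overlapped. It rose 3.22-fold in Tm against Control (log2 1.69 ± 0.18, limma adjusted p = 2.69e-06) and 3.16-fold in Tm_LPS against LPS (log2 1.66 ± 0.18, limma adjusted p = 4.35e-06). The LPS changes missed the threshold, at log2 -0.46 ± 0.18 in Tm_LPS against Tm (limma adjusted p = 0.0997) and log2 -0.44 ± 0.18 in LPS against Control (limma adjusted p = 0.118).

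Nupr1 (ENSMUSG00000030717; chromosome 7, 126623249 to 126630861, minus strand) encodes a small chromatin-associated protein induced by many stresses. It had 587, 273 and 399 FPKM in Tm_LPS, 183, 292 and 269 in Tm, 39.6, 34.3 and 45.6 in LPS, and 9.79, 15.4 and 10.5 in Control. Each agent alone gave libraries above all Control libraries, and the 2 tunicamycin groups overlapped through Tm_LPS replicate 2. Nupr1 rose 19.3-fold in Tm against Control (log2 4.27 ± 0.23, limma adjusted p = 8.82e-10), 9.88-fold in Tm_LPS against LPS (log2 3.30 ± 0.23, limma adjusted p = 3.10e-08) and 3.20-fold with LPS alone (log2 1.68 ± 0.23, limma adjusted p = 4.86e-05). In Tm_LPS against Tm it was 1.64-fold higher (log2 0.71 ± 0.23, limma adjusted p = 0.0482), a call that 17 of 21 alternatives lost, with adjusted p from 0.00601 to 0.227. Of the 12 libraries, it held without Control replicate 2 or Tm_LPS replicate 2 and was lost without any other one. Without Tm_LPS replicate 1 the estimate was log2 0.44 (0.207) and without Tm_LPS replicate 2 it was log2 0.99 (0.00601).

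Of the feedback genes, Trib3 (ENSMUSG00000032715; chromosome 2, 152337422 to 152344032, minus strand) had 220, 229 and 239 FPKM in Tm_LPS, 368, 386 and 379 in Tm, 2.00, 1.34 and 1.10 in LPS, and 3.69, 2.66 and 4.13 in Control. No 2 groups overlapped: LPS libraries were the lowest, and with tunicamycin the LPS-treated libraries were again below those without LPS. Trib3 rose 85.2-fold in Tm against Control (log2 6.41 ± 0.15, limma adjusted p = 2.05e-14) and 93.8-fold in Tm_LPS against LPS (log2 6.55 ± 0.15, limma adjusted p = 2.90e-14), the largest log2 rise of any tested gene in each. With a pseudocount of 0.1 the estimate in Tm_LPS against LPS was log2 7.22. LPS lowered it 1.81-fold without tunicamycin (log2 -0.86 ± 0.15, limma adjusted p = 0.000455) and 1.65-fold with it (log2 -0.72 ± 0.15, limma adjusted p = 0.00292). The difference between those 2 LPS effects was log2 0.14, with a 95% interval of -0.31 to 0.59 (limma adjusted p = 0.830). All 4 calls held in each of the 21 alternatives run.

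Ppp1r15a (ENSMUSG00000040435; chromosome 7, 45522916 to 45526268, minus strand), the inducible phosphatase subunit gene, had 652, 574 and 599 FPKM in Tm_LPS, 262, 288 and 273 in Tm, 81.8, 86.8 and 95.3 in LPS, and 16.4, 18.2 and 15.7 in Control. The 4 groups were fully separated, with Tm_LPS highest. It rose 15.5-fold in Tm against Control (log2 3.96 ± 0.09, limma adjusted p = 2.23e-14), 6.85-fold in Tm_LPS against LPS (log2 2.78 ± 0.09, limma adjusted p = 4.76e-12), 5.01-fold with LPS alone (log2 2.32 ± 0.09, limma adjusted p = 9.69e-12) and 2.21-fold in Tm_LPS against Tm (log2 1.14 ± 0.09, limma adjusted p = 1.52e-07). It was the gene of the 10 that rose most with LPS. The overlapping gene Tulp2 on the other strand was at no more than 0.0999 FPKM in any library.

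Ppp1r15b (ENSMUSG00000046062; chromosome 1, 133131143 to 133139783, plus strand), the constitutive counterpart, had 11.8, 16.1 and 9.65 FPKM in Tm_LPS, 12.1, 16.8 and 14.4 in Tm, 13.8, 20.5 and 14.7 in LPS, and 13.0, 7.69 and 12.9 in Control. Only the LPS libraries lay wholly above Control, and replicate 2 was the highest library in 3 groups and the lowest in Control. It was called in none of the comparisons. The estimate for Tm against Control was log2 0.36 with a 95% interval of -0.12 to 0.84 (limma adjusted p = 0.241), for Tm_LPS against LPS log2 -0.36 with an interval of -0.84 to 0.11 (0.248), and for LPS against Control log2 0.52 with an interval of 0.04 to 1.00 (0.137).

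Chac1 (ENSMUSG00000027313; chromosome 2, 119351229 to 119354381, plus strand) had 44.1, 46.5 and 50.5 FPKM in Tm_LPS, 26.7, 34.6 and 33.0 in Tm, 0.365, 0 and 0.786 in LPS, and 0.545, 1.91 and 1.12 in Control. It was near 0 without tunicamycin, and all Tm_LPS libraries lay above all Tm libraries. It rose 15.2-fold in Tm against Control (log2 3.93 ± 0.24, limma adjusted p = 4.90e-09) and 35.6-fold in Tm_LPS against LPS (log2 5.15 ± 0.24, limma adjusted p = 2.44e-10). The filter favoured both rises, so their p-values are a description. Near 0 the pseudocount sets the size of the fold: at 0.1 the estimates were log2 4.75 and log2 7.09. The changes with LPS missed the threshold, at log2 0.57 ± 0.24 in Tm_LPS against Tm (limma adjusted p = 0.134) and log2 -0.65 ± 0.24 in LPS against Control (limma adjusted p = 0.0786). Without Control replicate 1 or LPS replicate 3 the fall with LPS alone was called (adjusted p = 0.0235 and 0.0327), as it was with a pseudocount of 0.1 (log2 -1.75, 0.0488). With only the 6 libraries of the comparison fitted, the rise in Tm_LPS against Tm was called (0.0167).

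**Figure D3:**
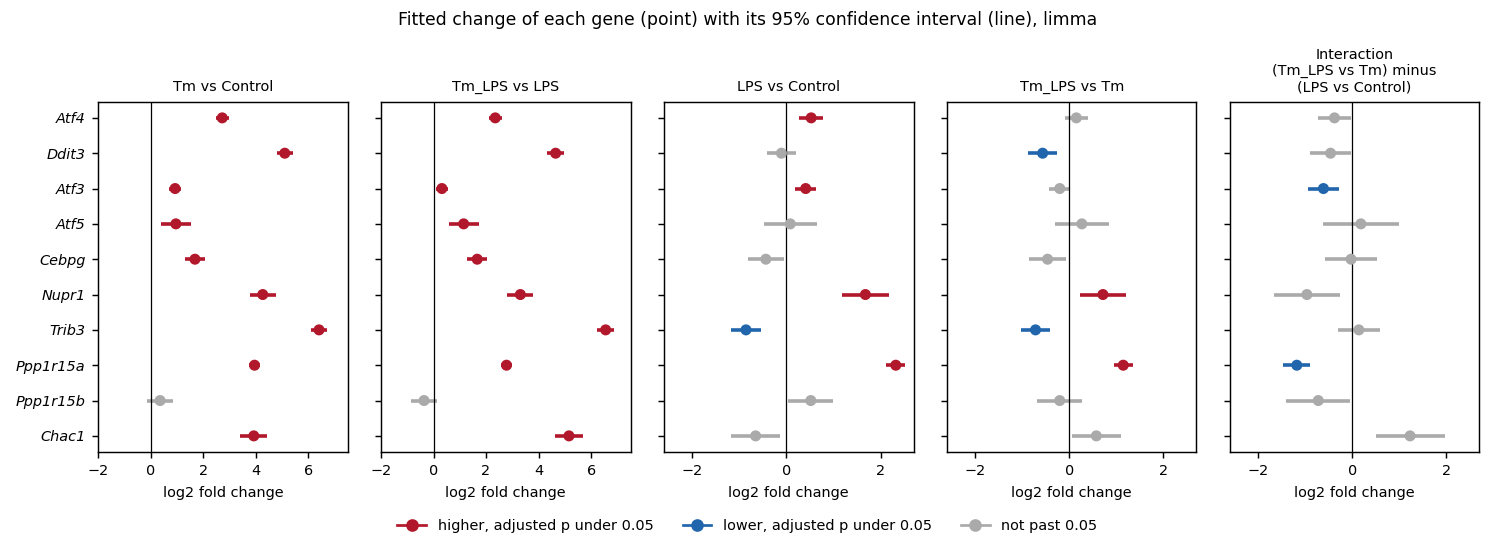
Fitted log2 fold change (x axis) of each gene (rows) in the 4 comparisons and in their interaction, with 95% confidence intervals as lines. Red marks genes called higher and blue genes called lower; the x axis is wider in the panels of the comparisons of tunicamycin with no tunicamycin, where Trib3 reaches log2 6.41 and 6.55.

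With LPS alone 4 genes of the set were called higher (Atf4, Atf3, Ppp1r15a and Nupr1), 1 lower (Trib3) and 5 were not called. Among all genes 10.5% were called higher and 7.86% lower, so that the share lower was near that of all genes. Of all genes called with LPS alone 57.2% were higher, and 48.0% with quantile normalization. In Tm_LPS against Tm, 2 genes were called higher (Ppp1r15a and Nupr1), 2 lower (Ddit3 and Trib3) and 6 were not called, beside 8.69% of all genes higher and 7.00% lower. Among all called genes of that comparison 55.4% were higher, and 44.9% with quantile normalization, under which Atf3 was also called lower (log2 -0.46, adjusted p = 0.00635). The interaction is the LPS effect with tunicamycin less the LPS effect without it. It called 0 genes of the set higher (1 at an unadjusted p under 0.05) and 2 lower, Ppp1r15a and Atf3 (6 lower unadjusted). Among all genes it called 1.41% higher and 1.96% lower. For Ppp1r15a it was log2 -1.18 ± 0.13 (limma adjusted p = 5.21e-05) and was called in all 20 alternatives. For Atf3 it was log2 -0.61 ± 0.15 (limma adjusted p = 0.0336), and 10 of 20 alternatives lost the call, with adjusted p from 0.0102 to 0.134. Chac1 had the largest positive estimate of the set, log2 1.23 ± 0.35 (limma adjusted p = 0.0648), which was called without Control replicate 1 (0.0260) or LPS replicate 3 (0.0374) and was log2 2.34 with a pseudocount of 0.1 (0.171). Nupr1 had log2 -0.96 ± 0.33 (limma adjusted p = 0.144), called without Tm_LPS replicate 1 (0.0258).

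The interaction compares folds, and the picture differed on the linear scale. Ppp1r15a averaged 608 FPKM in Tm_LPS, whereas the Control mean plus the separate changes with Tm and with LPS came to 346 FPKM, and all 3 Tm_LPS libraries lay above that sum. Its negative log2 interaction thus stood beside a level 1.76 times the sum. Chac1 averaged 47.0 FPKM against a sum of 30.6, also with every library above it, and Nupr1 averaged 420 against 276, with Tm_LPS replicate 2 at 273. Below their sums lay Ddit3 (1093 against 1598 FPKM), Trib3 (229 against 376), Atf3 (222 against 302), Cebpg (22.3 against 28.3) and Ppp1r15b (12.5 against 19.5), in each case with all 3 libraries. Atf4 averaged 252 FPKM against 243, with its libraries on both sides. Atf5 averaged 2.99 FPKM against 2.51, with all 3 libraries above the sum. These sums are a description of group means and were not tested.

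**Figure D4:**
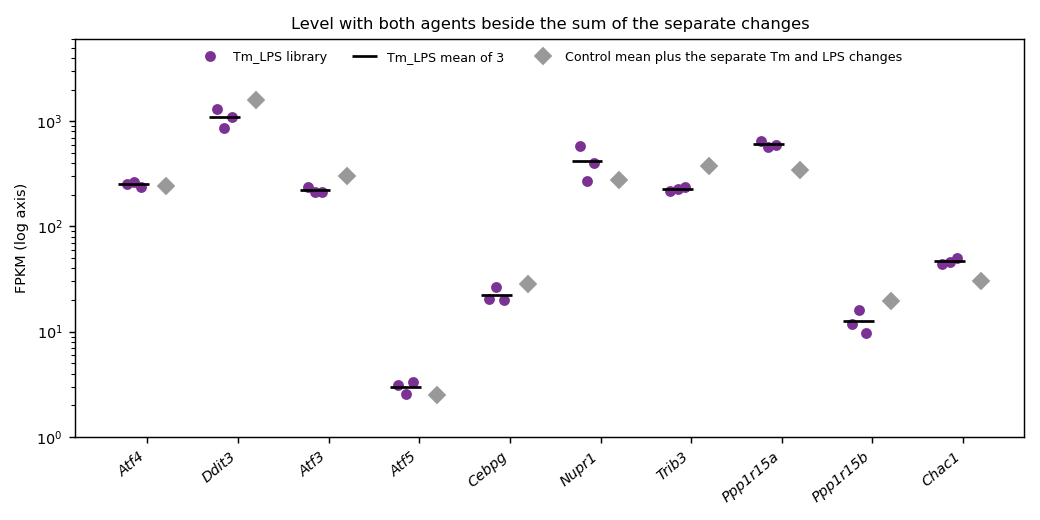
FPKM on a log axis for each gene (x axis): points are the 3 Tm_LPS libraries, the line their mean, and the grey diamond the Control mean plus the separate changes with Tm and LPS. Ppp1r15a, Chac1 and Atf5 libraries lie above the diamond, and those of Ddit3, Trib3, Atf3, Cebpg and Ppp1r15b below it.

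The balance within the set shifted with treatment. The 10 genes together had 2506 to 3353 FPKM in Tm_LPS, 2833 to 3251 in Tm, 398 to 437 in LPS and 256 to 277 in Control. Ddit3 made up 34.4% to 39.4% of that sum in Tm_LPS, 50.3% to 54.2% in Tm, 8.09% to 11.3% in LPS and 15.2% to 19.6% in Control. Atf3 made up 7.10% to 8.56% in Tm_LPS, 7.81% to 9.22% in Tm, 40.6% to 44.2% in LPS and 47.9% to 53.1% in Control. By group mean the order in Control was Atf3, Ddit3, Atf4, Ppp1r15a, Nupr1, Ppp1r15b, Cebpg, Trib3, Chac1 and Atf5, in which Nupr1 overlapped Ppp1r15b, Ppp1r15b overlapped Cebpg, and Chac1 overlapped Atf5. With LPS, Ppp1r15a moved to the second place, and the libraries of Atf4, Ddit3 and Nupr1, next in order, overlapped from neighbour to neighbour. In Tm the order began with Ddit3 and Trib3, each apart from the next gene, after which Ppp1r15a, Atf3, Nupr1 and Atf4 overlapped from neighbour to neighbour. In Tm_LPS it began with Ddit3, apart from Ppp1r15a, which in turn overlapped Nupr1.

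Ratios within a library do not depend on the scaling between libraries. The inducible phosphatase subunit gene stood to the constitutive one, Ppp1r15a to Ppp1r15b, at 35.6 to 62.1 in Tm_LPS, 17.1 to 21.7 in Tm, 4.24 to 6.49 in LPS and 1.21 to 2.37 in Control, with no overlap between groups. Ddit3 stood to Atf4 at 3.27 to 5.18 in Tm_LPS, 5.98 to 7.89 in Tm, 0.823 to 0.934 in LPS and 1.22 to 1.57 in Control. The Ddit3 to Atf4 ratio was thus lower with LPS than without it, both with tunicamycin and without tunicamycin. Trib3 to Ddit3 was 0.166 to 0.265 in Tm_LPS, 0.215 to 0.249 in Tm, 0.0311 to 0.0406 in LPS and 0.0504 to 0.0982 in Control. Nupr1 to Ddit3 was 0.317 to 0.444 in Tm_LPS, 0.124 to 0.187 in Tm, 0.803 to 1.29 in LPS and 0.233 to 0.292 in Control. These ratios of mRNA levels were not tested.

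**Figure D5:**
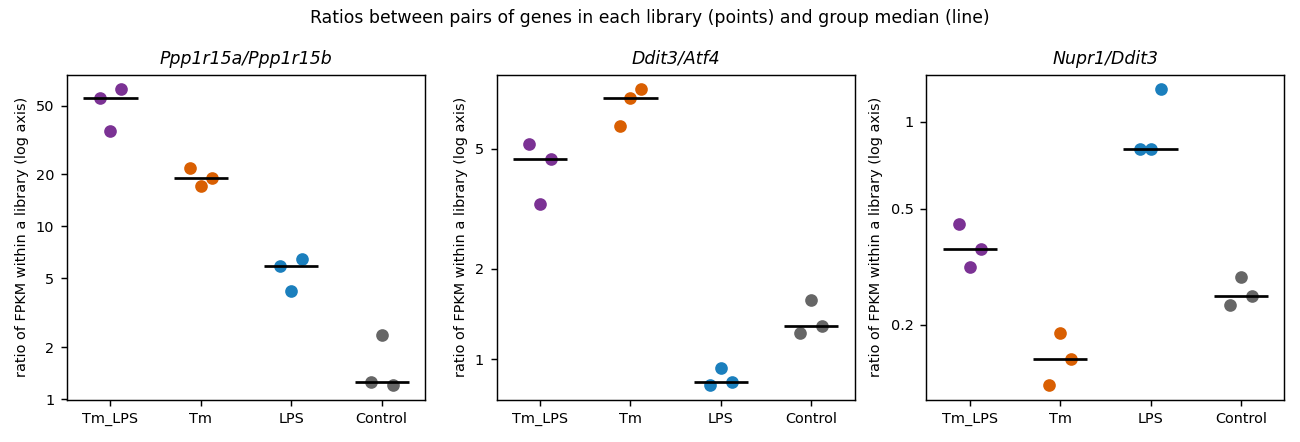
Ratio of FPKM between 2 genes within each library (y axis, log scale) in Tm_LPS, Tm, LPS and Control (x axis); points are libraries and lines group medians. Ppp1r15a to Ppp1r15b is highest in Tm_LPS, Ddit3 to Atf4 in Tm, and Nupr1 to Ddit3 in LPS.

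Genes known as targets of ATF4 or CHOP moved mostly the same way with tunicamycin. The list was drawn up with earlier results of these data known. Of 50 listed, 42 were tested, and in Tm against Control 38 were higher, 0 lower (0 at an unadjusted p under 0.05) and 4 not passed, with a median log2 of 1.60, against 0.03 over all genes, of which 17.9% were higher and 16.6% lower. Herpud1, of ER-associated degradation, had 980 ± 59.4 FPKM in Tm and 16.8 ± 3.32 in Control (SD, n = 3 each; log2 5.80 ± 0.12). Gadd45a, a growth arrest gene, had 158 ± 28.0 and 4.83 ± 1.70 FPKM in those groups (log2 4.80 ± 0.23), the amino acid transporter gene Slc1a4 13.4 ± 1.45 and 0.558 ± 0.412 (log2 3.24 ± 0.23), and the asparagine synthetase gene Asns 209 ± 18.0 and 21.7 ± 3.59 (log2 3.22 ± 0.14). In Tm_LPS against LPS 37 were higher, 0 lower (also 0 at an unadjusted p under 0.05) and 5 not passed, with a median log2 of 1.58. Among all genes 13.8% were higher and 15.1% lower. Slc6a9, counted as higher in both comparisons, averaged 0 FPKM in Control and 0.0464 in LPS. It passed the filter only through libraries with tunicamycin, which favoured its rise. Slc1a4, also counted as higher in both, averaged 0.558 FPKM in Control and 1.12 ± 0.356 in LPS, around the filter limit of 1 FPKM. The filter may thus have favoured the rise of Slc1a4 as well, and its values are a description. Slc6a9 and Slc1a4 stay in the counts above.

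With LPS alone 8 of these targets were higher, 3 lower and 31 not passed (median log2 0.07), beside 10.5% and 7.86% of all genes, so that the share lower was near that of all genes. The largest were Jdp2, a bZIP repressor gene (log2 3.53 ± 0.30), and Slc7a11, the cystine transporter gene (log2 3.28 ± 0.20). Of the targets, 9 were higher in Tm_LPS against Tm, 3 lower and 30 not passed (median log2 0.11), beside 8.69% and 7.00% of all genes. The largest were Jdp2 (log2 3.84 ± 0.30) and the secreted stress cytokine gene Gdf15, at 483 ± 95.9 FPKM in Tm_LPS and 92.3 ± 10.9 in Tm (log2 2.36 ± 0.15). In the interaction 1 was higher, 3 lower and 38 not passed, beside 1.41% and 1.96% of all genes; Gadd45a (log2 -2.04 ± 0.32) and Herpud1 (log2 -1.55 ± 0.18) were the largest.

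Upstream of ATF4, 17 genes of the eIF2alpha kinases, the eIF2 and eIF2B subunits, the phosphatase catalytic subunits and kinase inhibitors were tested. In Tm against Control 6 were higher, 1 lower and 10 not passed, beside 17.9% and 16.6% of all genes. Dnajc3, whose product P58IPK inhibits eIF2alpha kinases, had 77.5 ± 17.7 FPKM in Tm and 24.4 ± 2.50 in Control (log2 1.61 ± 0.17), and Eif2ak3, the PERK gene, 10.1 ± 0.689 and 3.30 ± 1.18 FPKM (log2 1.40 ± 0.23). Eif2s2, encoding eIF2 beta, rose by log2 1.04 ± 0.10, and the eIF2B subunit gene Eif2b2 by log2 0.83 ± 0.14. In Tm_LPS against LPS 5 were higher and 2 lower of 17, beside 13.8% and 15.1% of all genes. In Tm_LPS against Tm there were 3 and 2, beside 8.69% and 7.00%, and in LPS against Control 2 and 1, near the 10.5% and 7.86% of all genes. In the interaction there were 0 and 0 by limma, the 1 tool run, with 0 higher and 1 lower at an unadjusted p under 0.05. In Tm_LPS against Tm, Eif2ak3 was lower, at 5.44 ± 0.938 FPKM in Tm_LPS and 10.1 ± 0.689 in Tm (SD, n = 3 each; log2 -0.79 ± 0.23), as was the eIF2B subunit gene Eif2b1 (log2 -0.46 ± 0.13).

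Of 33 listed genes, mostly of bZIP factors that can pair with or compete with ATF4 and CHOP, 31 were tested. In Tm against Control 12 were higher, 6 lower and 13 not passed (median log2 0.26), beside 17.9% and 16.6% of all genes, so that the share lower was near that of all genes. Nfil3, a repressor, had 49.2 ± 3.90 FPKM in Tm and 6.49 ± 2.40 in Control (log2 2.80 ± 0.21), and Nfe2l1, an activator of proteasome genes, rose as well (log2 2.26 ± 0.11). Jun, an AP-1 subunit gene, had 12.1 ± 2.49 FPKM in Tm and 68.1 ± 4.43 in Control (log2 -2.41 ± 0.17), and the macrophage factor gene Maf fell too (log2 -2.28 ± 0.19). In Tm_LPS against LPS 10 were higher and 3 lower, beside 13.8% and 15.1% of all genes, the higher ones including Cebpb at 184 ± 66.4 FPKM in Tm_LPS and 32.4 ± 12.9 in LPS (log2 2.47 ± 0.55). LPS alone gave 9 higher and 6 lower, beside 10.5% and 7.86% of all genes. In Tm_LPS against Tm there were 8 and 3, beside 8.69% and 7.00%, and in the interaction 5 and 3, beside 1.41% and 1.96%, with Jun at log2 2.13 ± 0.24.

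For the other branches of the unfolded protein response, 24 genes downstream of IRE1 and ATF6 or belonging to them were tested. In Tm against Control 20 were higher, 1 lower and 3 not passed (median log2 1.39), beside 17.9% and 16.6% of all genes. In Tm_LPS against LPS the numbers were 19, 1 and 4, beside 13.8% and 15.1%. Derl3, counted as higher in both, averaged 0 FPKM in Control and LPS, 5.33 in Tm and 6.59 in Tm_LPS. It passed the filter only through libraries with tunicamycin, which favoured its rise. The BiP gene Hspa5 had 9594 ± 2056 FPKM in Tm and 841 ± 73.2 in Control (log2 3.49 ± 0.14), and the sensor gene Ern1 12.8 ± 3.64 and 1.43 ± 0.550 (log2 2.50 ± 0.23). Between Tm_LPS and Tm 3 were higher and 1 lower, near the 8.69% and 7.00% of all genes: Ern1 fell (log2 -0.96 ± 0.23) while Hspa5 rose (log2 0.51 ± 0.14), as Hspa5 also did with LPS alone (log2 0.51 ± 0.14), the 1 gene of 24 called there (0 lower, and 0 lower at an unadjusted p under 0.05).

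Across the 12 libraries, the genes outside the set whose log2 values ran most like each member were found by Pearson's r, as a description; libraries of 1 group share their treatment, so r mostly reflects differences between groups. Ddit3 was nearest to the aminoacyl-tRNA synthetase genes Sars (r = 0.995) and Yars (0.989) and to the amino acid transporter gene Slc38a2 (0.987). Trib3 was nearest to Sesn2 (0.994), an mTORC1 inhibitor gene, to Sars (0.993) and to Xbp1 (0.991). Cebpg was also nearest to Sesn2 (0.975). Atf4 was nearest to Stx5a (0.990), Asns (0.989) and Herpud1 (0.986), and Chac1 to Them4 (0.992), Dnajb9 (0.991) and Nfil3 (0.989). Ppp1r15a and Nupr1, which were high in Tm_LPS, were nearest to Slc11a2 (0.996), an iron transporter gene, and to Nfe2l1 (0.988). For Atf3 and Atf5 the highest values were 0.971 (Dapp1) and 0.966 (Vwf), and for Ppp1r15b only 0.891 (Ndc1).

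Within the set, Ddit3 and Trib3 had the highest r of any pair (0.993), followed by Ppp1r15a and Nupr1 (0.978). Ppp1r15b had r between -0.27 and 0.29 with the other 9 genes. Ddit3 overlaps the tRNA synthetase gene Mars by 68 bases on the other strand; Mars had 69.6 to 86.6 FPKM in Tm_LPS, 49.3 to 52.9 in Tm, 29.1 to 31.9 in LPS and 29.9 to 32.6 in Control. Mars, like Ddit3, was called higher in Tm against Control (log2 0.70 ± 0.11) and in Tm_LPS against LPS (log2 1.30 ± 0.11). In Tm_LPS against Tm, Mars was higher (log2 0.59 ± 0.11) and Ddit3 lower. The part of Mars in the Ddit3 values was not tested.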

How the data were processed

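The 12 libraries, 3 per group, hold RNA of mouse bone-marrow-derived macrophages. The values are the authors' deposited FPKM for each gene symbol. The submitters' processing notes name the build mm10 and the tools Cufflinks 2.2.1, SAMtools 0.1.19, Bowtie2 2.2.3 and TopHat2 2.0.13; annotation, strand handling and scaling are not given in the sources used here. Summed FPKM was 561108 to 685010, and median-of-ratios factors lay between 1.013 and 1.019. Read depth is unknown: low values gave no whole reads, since only 7.07% to 19.0% of genes below 0.3 FPKM were within log2 0.02 of a library's most common ratio to the first Control library. No libraries were identical.

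A gene was tested if it reached 1 FPKM in 3 or more libraries. The model was limma 3.58.1 in R 4.3.3 on log2(FPKM + 1), using lmFit and a trended eBayes; all 12 libraries entered, each group had a mean of its own, and 5 contrasts were taken. It was run on simulated data with normal noise and equal group levels apart from planted changes. Such a run cannot show how the fit does for genes near 0 in some groups. The 10 genes and every list were chosen with earlier results of these data known, and no list was tested as a set. Genes were named by rule: the 10 members, up to 3 most correlated with each, and called genes of largest change per pathway list, up to 4 for Tm against Control and 2 for each other contrast. Il4i1, Mars and Tulp2 were added because they overlap members, and Derl3 and Slc6a9 because of how they passed the filter. Some genes that the rule names are not reported here. Gene positions are from GENCODE M21 (mm10) and promoters from RefSeq (GRCm38.p6). Each library was left out in turn, and 9 other alternatives were run: quantile normalization, scaling by median of ratios, a lower pseudocount (0.1), all genes without a filter, genes reaching 5 FPKM, a block for replicate number, a robust prior, a prior without trend, and fits of a contrast's own libraries. Plots were made in Python 3.11.15 (matplotlib 3.10.9, pandas 2.3.3).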

Additional observations from a re-analysis of the deposited data

Results flagged for a closer look

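For Ppp1r15a and Atf3 the effect of LPS differed with and without tunicamycin by the interaction term of the limma fit. For Ppp1r15a, LPS raised the level 2.21-fold with tunicamycin and 5.01-fold without it, a difference of log2 -1.18 ± 0.13 (adjusted p = 5.21e-05). In both settings all libraries with LPS lay above all libraries without it. For Atf3 the change with LPS was log2 -0.20 with tunicamycin and 0.41 without it, a difference of log2 -0.61 ± 0.15 (adjusted p = 0.0336). The Atf3 difference was lost in 10 of 20 alternatives.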

How the results depend on the processing

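Atf4, Ppp1r15a, Ppp1r15b, Trib3 and Cebpg kept their side of the threshold in each contrast and every alternative run. No called change of any of the 10 genes reversed. Of 15 counts (all genes, the 10 genes and the ATF4/CHOP targets in 5 contrasts) over the alternatives, 298 values stayed within 1.5 times the reported count and 14 did not. With no filter 7 ATF4/CHOP targets were called for LPS against Control, against 11 as reported. With no filter, and without trend, 2 members were called in Tm_LPS against Tm in place of 4, and 1 in the interaction in place of 2. Leaving out 1 library gave 2 to 4 members in Tm_LPS against Tm (2 without Tm replicate 3), 1 to 3 in the interaction (1 without Control replicate 2, LPS replicate 1, Tm replicate 2 or 3, or Tm_LPS replicate 2 or 3), 1068 to 1655 called genes in Tm_LPS against Tm (1068 without Tm replicate 2) and 228 to 352 in the interaction (228 without Tm replicate 3). Reversals were of uncalled values near 0: the Cebpg interaction (0.012 with a pseudocount of 0.1), Atf4 in Tm_LPS against Tm (-0.10 with quantile normalization) and the Trib3 interaction (-0.21 with quantile normalization). With 1 library left out, log2 values ran from -0.0936 to 0.29 for Atf5 and from -0.22 to 0.0159 for Ddit3 in LPS against Control, and in the interaction from -0.20 to 0.0966 for Cebpg and from -0.0238 to 0.39 for Atf5. Of the fold changes, 968 values kept direction and side, 43 lost and 8 gained the call; the cause was not tested. A filter at 5 FPKM left Atf5 out. Same-numbered libraries of different groups had r of -0.04 to 0.09 between their deviations from the group means over 18 pairs, against -0.11 to 0.05 for other pairs, so the numbers were not taken to pair them. With the replicate number as a block, 9 members were called for Tm against Control and 3 in Tm_LPS against Tm, where Nupr1 was lost (adjusted p = 0.0676). Unknown read depth and strand handling, 3 libraries a group and the pseudocount for low genes limit what can be seen.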
